A study of Homo sapiens with 7 samples.

Results

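Hairpins sh4 and sh8 both target GRASLND, a long non-coding RNA, and were compared here directly with each other, 2 libraries against 2, out of 7 RNA sequencing libraries in all. The cells were 501Mel, a human melanoma line with melanocytic features that was stably transduced with a doxycycline-inducible short hairpin RNA. Every library was doxycycline-induced for 3 days, and the groups were shlacZ, a control hairpin against a bacterial gene (n = 3), sh4 (n = 2) and sh8 (n = 2). The shlacZ libraries served as the reference level, and in the fit they also added to the estimate of the spread. The labels name the GRASLND hairpins sh4 and sh8, do not tie them to target sequences, and do not say whether replicates came from separate cultures, so p-values measure the spread between these libraries, which may be technical.

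Each hairpin line is a transduced population, so hairpin, integration and line cannot be told apart. Recovered depth was 13337317 to 22855232 reads per library, and the median gene differed between the replicates of a hairpin by 0.216 (sh4) and 0.214 (sh8) on the log2 scale. All 10 markers of the melanocytic lineage were expressed in every group. Of the markers of other cell types, 3 of 15 for keratinocytes, 5 of 14 for fibroblasts and 5 of 16 for immune cells had a row in the table. Their summed normalized counts overlapped between sh4 (148 to 171, 58.7 to 88.8 and, without LYZ, 446 to 580.5) and sh8 (147 to 174, 76.5 to 103 and 569 to 677). Most of each sum came from a single gene, namely KRT10, FBLN1 and CD68 in turn. The sums therefore say little about the other markers, which had low counts.

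A short hairpin RNA is cut into a small guide that lowers matching transcripts, and any such guide can also lower transcripts that share a short match with it. Matches of this kind were not analysed here. Melanoma cells are known to shift between a pigmented, melanocytic state governed by the transcription factors MITF and SOX10 and less pigmented states with other adhesion and secretion genes. MITF binds short E-box letters such as CATGTG in promoters of pigment genes, and the cyclic AMP factor CREB binds TGACGTCA.

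The stretches shown here lie just upstream of the start of 3 pigment genes that were lower under sh4 than under sh8, and of VGF, which the hairpins moved in opposite directions. They were taken from RefSeq (GRCh38.p14), are written 5′ to 3′ on the strand of the gene, and carry CATGTG or its reverse complement CACATG (pigment genes) or TGACGTCA (VGF) in capitals. The stretches of TYRP1 and GPR143 also lie within an intron of longer transcript models in GENCODE. A second TYRP1 match, 11 bases upstream of the start, is not printed.
TYRP1, chr9:12693214-12693273, plus strand: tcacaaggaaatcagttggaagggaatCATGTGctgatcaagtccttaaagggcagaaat
TRPM1, chr15:31161161-31161195, minus strand: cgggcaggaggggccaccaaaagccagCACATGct
GPR143, chrX:9765848-9765935, minus strand: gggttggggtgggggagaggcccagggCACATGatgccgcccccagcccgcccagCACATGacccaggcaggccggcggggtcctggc
VGF, chr7:101165614-101165675, minus strand: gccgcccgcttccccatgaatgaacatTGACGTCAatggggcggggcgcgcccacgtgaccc

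These letters were counted on both strands in promoters from 250 bases before to 50 bases after the start, for the 10469 tested genes with a RefSeq promoter. CATGTG stood in 15.5% of the 129 promoters of genes called lower under sh4, in 7.21% of the 222 promoters of genes called higher, and in 6.73% of all promoters. It stood in 8 of 19 pigment and melanosome promoters, and in 3 of the 6 of these whose genes were lower under sh4. TGACGTCA stood in 1.35%, 3.10% and 3.45% of the promoters of genes called higher, genes called lower and all genes, so that VGF was 1 of 3 genes called higher that carried it. The related letters CACGTG, which also stand in lower case in the VGF stretch, stood in 8.11%, 9.30% and 10.1%. A match is a description of these letters and not a measured binding site.

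The target itself did not separate the hairpins. GRASLND (ENSG00000228203, chromosome 2, 6911754 to 6918734, minus strand, hg38) had normalized counts of 309, 329.9 and 289.7 in shlacZ, 175 and 131 in sh4, and 227 and 163 in sh8. The hairpin groups overlapped, and both lay below all control libraries. The difference of sh4 minus sh8 was -0.34 on the log2 scale (SE 0.22, 95% interval -0.84 to 0.16; limma, adjusted p = 0.421). An exact two-sided permutation test gave p = 0.667, and the smallest p that 6 splits allow is 0.333. Against control, GRASLND fell by 1.02 with sh4 (adjusted p = 0.00662). The sh8 step of -0.68 did not pass (adjusted p = 0.11).

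RNF144A, a ubiquitin ligase gene on the opposite strand (ENSG00000151692, chromosome 2, 6917412 to 7068286) whose start overlaps GRASLND, did differ. Its normalized counts were 3626, 3276 and 3192 in shlacZ, 2556 and 2075 in sh4, and 3455 and 3503 in sh8. The sh8 libraries lay among the control libraries and both sh4 libraries lay below them, a difference of -0.59 (SE 0.14, adjusted p = 0.0295). The library kit keeps the strand, but whether the counting used it is not stated, so overlapping reads of this pair are uncertain. RNF144A no longer passed with quantile normalization, without the variance trend, or without the third shlacZ library, the second sh4 library or either sh8 library (adjusted p from 0.0513 to 0.218 across these).

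Across the 15420 genes with a mean normalized count of at least 10, 566 (3.67%) were higher under sh4 than under sh8 at an adjusted p under 0.05 (limma), and 513 (3.33%) were lower. Such a gene is said here to have passed. A gene was called when its log2 fold change also exceeded 1 in size, which held for 492 genes (3.19%), 297 (1.93%) higher and 195 (1.26%) lower under sh4. Relative to control, 22.5% of genes passed under sh4 and 2.92% under sh8. The median sh4 minus sh8 difference of all genes was -0.01. The calls rested on few libraries. Without the second sh4 library there were 134 calls, without the first sh8 library 211, and without the second sh8 library 314. The genes that passed numbered 1975 without the first shlacZ library, 529 without the first sh4 library, 144 without the second, 239 and 387 without either sh8 library, and 476 without the variance trend.

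Of 145 genes that passed and were followed singly through the alternatives, 48 still passed without the second sh4 library, 60 without the first sh8 library, 78 without the second and 93 without the first sh4 library, and 0 changed sign in any alternative. A set of 46 passed in every alternative that gave a value. It held VGF, ITGA10, SERPINI1, MAP1B and ITGA1 among the genes higher under sh4, and SNAI2, DCT, TYRP1, TRPM1, MYC, PHGDH and TEX15 among those lower.

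**Figure D1:**
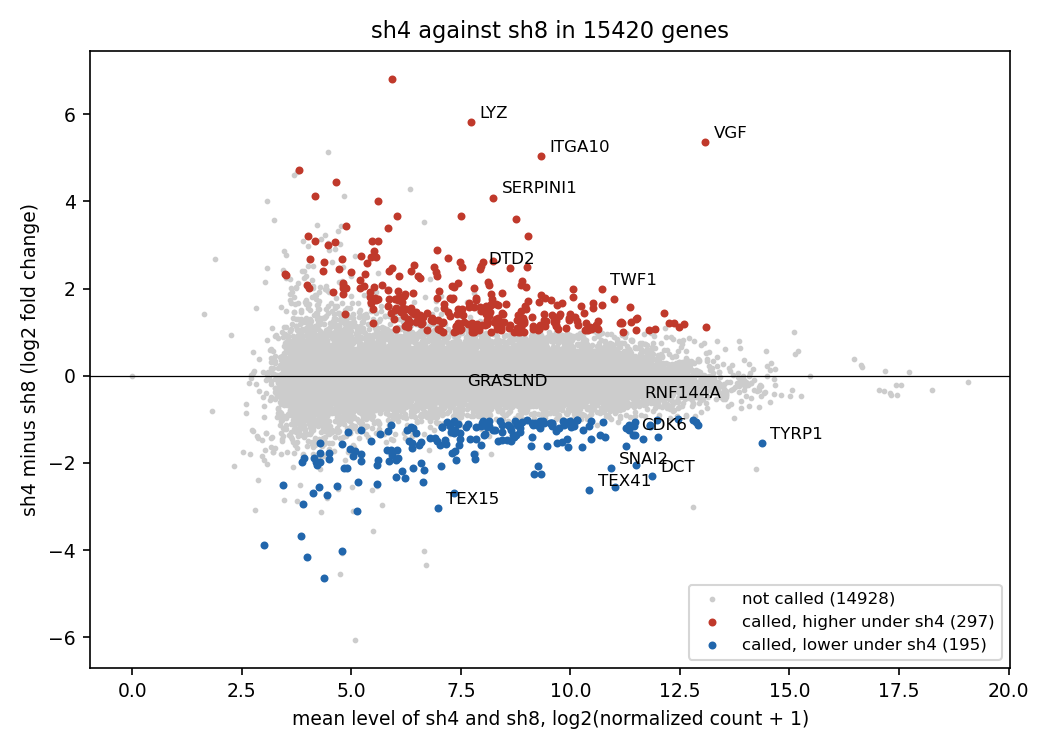
Log2 fold change of sh4 minus sh8 (vertical axis) against the mean level of both hairpins in log2(normalized count + 1) (horizontal axis), 1 point per gene for 15420 genes. Red points are the 297 genes called higher under sh4, blue points the 195 called lower, and grey points were not called. GRASLND lies inside the grey band.

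Genes of secretion and of dense core vesicles were among those higher under sh4. VGF, the precursor of neuronal secretory peptides stored in dense core vesicles, had 1806, 1398 and 1648 normalized counts in shlacZ, 16279.6 and 17362 in sh4, and 285 and 591 in sh8. The sh4 libraries lay above every control library and the sh8 libraries below every one, 38.4-fold apart by their means (log2 fold change 5.35, SE 0.28, adjusted p = 4.7e-05). Of 34 genes of granins and dense core vesicles, 13 were tested and 5 passed, all higher under sh4 (against 3.67% of all genes), with a median of 0.99. They were VGF, the secretogranin SCG3 (3.20), STMN3 (1.40), the peptide amidating enzyme PAM (1.07) and the vesicle protein SYT11 (0.99). STMN3 was on the list but belongs to the stathmins and is not itself a granin. SCG3 was near the detection limit, at 6.19, 20.9 and 11.3 in shlacZ, 22.6 and 32.8 in sh4, and 3.95 and 0.91 in sh8.

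LYZ, which encodes lysozyme, an antibacterial enzyme of myeloid and secretory cells, had the largest fold change among the named genes. Its normalized counts were 0, 4.19 and 1.74 in shlacZ, 337 and 492 in sh4, and 5.27 and 7.28 in sh8. The sh8 libraries thus lay just above the control and the sh4 libraries far above both (5.82, SE 0.71, adjusted p = 0.00204). LYZ was 1 of the immune markers. The summed level of the other 4 with a row was no higher under sh4 than under sh8. That sum was nearly all CD68 (577 and 441 in sh4, 568 and 671 in sh8). ITGAM, GNLY and ITGB2 were near the detection limit in every library, so the sum says little about other immune genes. STC1, a secreted calcium regulating hormone, was 2.09 higher under sh4 (adjusted p = 0.0135). It and LYZ were the genes of 12 tested secreted enzymes and stress hormones that were higher (against 3.67% of all genes). The plasminogen activator PLAT (-0.60) was lower.

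Several integrins, the receptors that fasten cells to matrix, were higher under sh4 as well. ITGA10, a collagen-binding integrin subunit, had 10.3, 11.5 and 13.0 normalized counts in shlacZ, 1522 and 975 in sh4, and 38.2 and 33.7 in sh8. Both hairpins lay above the control, sh4 34.7-fold above sh8 (log2 fold change 5.05, SE 0.30, adjusted p = 0.000103). ITGA1, another collagen-binding subunit, had 129, 129.9 and 157 in shlacZ, 1561 and 1858 in sh4, and 361 and 499.6 in sh8, in the same order (2.00, SE 0.20, adjusted p = 0.00123). The laminin-binding subunits ITGA3 (1.49) and ITGA6 (1.22) were higher under sh4 while their sh8 difference from control, -0.07 and 0.17, did not pass. In all, 5 of 13 tested integrins were higher under sh4 (against 3.67% of all genes) and 0 lower. The median of the 13 was 0.59, where that of all genes was -0.01. The fifth was ITGAX, a leukocyte subunit with 0 and 3.64 counts in sh8 and 50.8 and 41.8 in sh4.

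Matrix genes were mixed, where 3.67% of all genes were higher under sh4 and 3.33% lower. Of 24 tested collagens and laminins, 4 were higher under sh4 and 0 lower, namely LAMB3 (3.09), COL9A3 (1.48), LAMB2 (0.72) and LAMC1 (0.61), with a median of 0.39. Of 16 tested matrix proteases and inhibitors, 4 were higher, ADAM19 (3.67), TIMP1 (1.41), MMP16 (1.23) and SERPINE2 (1.22), and 2 were lower. Outside sh4, LAMB3 and ADAM19 were near the detection limit, with 2 and 3 reads (LAMB3) and 6 and 9 reads (ADAM19) in sh8. The gelatinase MMP2 was lower under sh4 (-2.44, adjusted p = 0.00727), with 81.5, 40.8 and 44.4 in shlacZ, 10.2 and 9.70 in sh4, and 52.7 and 64.6 in sh8. Its inhibitor family member TIMP1 had 116, 157 and 149 in shlacZ, 372 and 407 in sh4, and 128 and 166 in sh8, so the enzyme and the inhibitor lay on opposite sides of control under sh4, while at least 1 sh8 library of each lay within the control range.

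SERPINI1 and MAP1B were also among the 12 highest genes. SERPINI1, the neuronal protease inhibitor neuroserpin, had 60.9, 36.7 and 53.1 in shlacZ, 409 and 729.9 in sh4, and 23.7 and 41.0 in sh8 (4.09, SE 0.38, adjusted p = 0.00113). MAP1B, a microtubule protein of growing axons, had 187, 120.5 and 137 in shlacZ, 651 and 1243 in sh4, and 84.4 and 110.1 in sh8 (3.21, SE 0.32, adjusted p = 0.00113). RIMS3, a synaptic release protein, was 2.64 higher and RHOU, a small GTPase of cell shape, 2.62 higher under sh4. For SERPINI1 and MAP1B the sh8 means lay below control, by differences that did not pass (-0.64 and -0.59).

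The other genes of the 12 highest were the proton pump subunit ATP6V1C2 (3.67), the transcriptional adaptor LMO2 (3.60), the LIM domain gene CRIP2 (2.89), RASSF2, which encodes a RAS-binding tumour suppressor (2.60), and BLACAT1 (2.54). LMO2 had 5.16, 24.1 and 29.6 in shlacZ, 661 and 949 in sh4, and 58.0 and 71.9 in sh8. All of the 12 had both sh4 libraries above every sh8 and every control library.

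**Figure D2:**
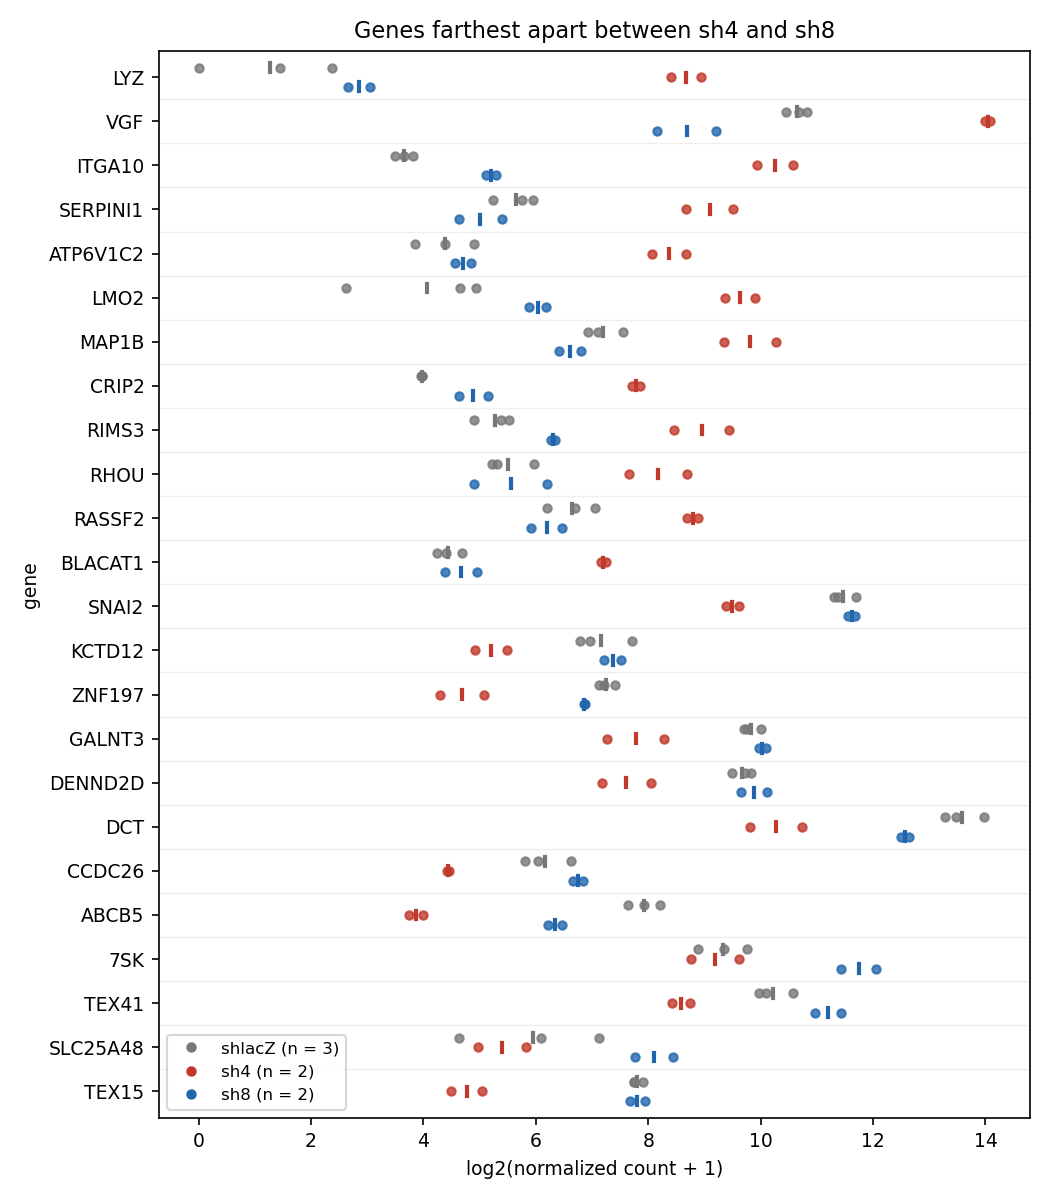
Level in log2(normalized count + 1) (horizontal axis) of the 12 genes with the highest and the 12 with the lowest log2 fold change of sh4 minus sh8 among called genes with a mean of at least 50. Each point is a library and each short line a group mean. Both sh8 points lie to the right of all grey control points for LYZ, ITGA10, LMO2, CRIP2, RIMS3, SLC25A48, TEX41, 7SK and CCDC26, and to their left for VGF, MAP1B, ABCB5, DCT and ZNF197.

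The genes lower under sh4 included pigment genes of the melanocytic program. Of 23 tested pigment and melanosome genes, 0 were higher and 7 (DCT, TRPM1, TYRP1, MLANA, GPR143, PMEL and CAPN3) were lower under sh4 than under sh8, against 3.33% of all genes, with a median of -0.39. DCT, dopachrome tautomerase of the melanin pathway, had 16036, 11423 and 9970.3 in shlacZ, 1704 and 893 in sh4, and 6405 and 5805 in sh8. Both hairpins lay below control, sh4 farther (-2.30, SE 0.29, adjusted p = 0.00231), and the sh8 difference from control did not pass (adjusted p = 0.0734). In such bulk libraries fewer pigmented cells and less pigment RNA per cell cannot be told apart. TYRP1, the melanosomal enzyme whose upstream stretch is printed here, had 36836, 52194 and 45912 in shlacZ, 10416 and 11194 in sh4, and 32891 and 29979.9 in sh8 (-1.54, SE 0.17, adjusted p = 0.00182). TRPM1, a melanocyte ion channel, had 3025, 2399.6 and 2351 in shlacZ, 783 and 456 in sh4, and 1990.4 and 1706 in sh8 (-1.62, SE 0.23, adjusted p = 0.00443).

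GPR143, a melanosome receptor, carried the motif as well and was lower by a smaller step (-0.75, adjusted p = 0.0273). TYR, the tyrosinase that starts melanin synthesis and also carried CATGTG, had 10288 and 9183 in sh4 and 9200.5 and 11314 in sh8, beside 8795, 8192 and 9420.5 in shlacZ. Its groups overlapped, and it did not pass (-0.07, adjusted p = 0.824).

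Transcription factors of this program were also among the genes lower under sh4. Of 18 tested melanocyte transcription factors, 4 were lower under sh4 (against 3.33% of all genes) and 0 higher. MITF had 22076, 20552 and 17326 in shlacZ, 12619 and 11635 in sh4, and 19031 and 17418 in sh8, so that both sh8 libraries lay within the control range (-0.59, SE 0.15, adjusted p = 0.0415). SOX10, which maintains melanocyte identity, had 8259, 8523 and 9084 in shlacZ, 4410.1 and 3213 in sh4, and 5913 and 7381 in sh8 (-0.81, adjusted p = 0.02). TFAP2A, a neural crest and melanocyte factor, differed by -0.71 (adjusted p = 0.0124).

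SNAI2, a repressor known from neural crest migration and epithelial to mesenchymal transition, had the deepest difference of these factors. It had 2663, 3327 and 2543 normalized counts in shlacZ, 779 and 668 in sh4, and 3289 and 3013 in sh8 (-2.12, SE 0.16, adjusted p = 0.000417). The sh8 libraries stayed within the control range. HMGA2, a chromatin protein of the same transition, had 4816, 4673 and 4712 in shlacZ, 2337 and 2164 in sh4, and 4637 and 5260.3 in sh8 (-1.13, adjusted p = 0.0016). Both were lower among 10 tested genes of that transition (against 3.33% of all genes), and 0 were higher. Of 19 other MITF target genes, the drug transporter ABCB5 (-2.48), the endothelin receptor EDNRB (-1.40) and the receptor kinase MET (adjusted p = 0.00302) were lower and HIF1A (0.74) was higher. The median of that list, -0.08, turned positive with quantile normalization and without the second sh8 library.

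The remaining genes of the 12 lowest were not of the pigment program. TEX15, a germ cell gene, had 239, 214 and 215 in shlacZ, 21.5 and 32.1 in sh4, and 244 and 204 in sh8, so that sh4 alone was displaced (-3.04, SE 0.25, adjusted p = 0.000753). GALNT3, which adds sugars to secreted proteins, and DENND2D, a regulator of membrane traffic, were each lower by 2.26 on the log2 scale. In GALNT3 the libraries stood at 1033, 838 and 863 in shlacZ, 309 and 154 in sh4, and 1004 and 1090.3 in sh8. The others were CCDC26 (-2.32), ZNF197 (-2.18), KCTD12 (-2.16) and the mitochondrial carrier SLC25A48 (-2.70), whose control libraries spread from 23.7 to 139. The sh4 libraries of SLC25A48 (30.5 and 56.0) lay within that spread and its sh8 libraries (347 and 217) above it. Neither hairpin passed against control for this gene.

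MYC, a driver of ribosome production and growth, had 3679, 4823 and 5178 in shlacZ, 1740.3 and 1437 in sh4, and 3857 and 4289 in sh8 (-1.36, SE 0.18, adjusted p = 0.00277). Of 79 tested cytosolic ribosomal proteins, 75 had a point estimate below 0, but only RPL5, RPL11, RPL6 and RPL23 passed, with a median of -0.28. Of 60 tested ribosome biogenesis genes, 53 had a point estimate below 0 and 2, the polymerase I subunits POLR1E (-0.82) and POLR1A (-0.62), passed. These counts of genes that passed are close to the 3.33% of all genes that were lower under sh4. Such genes move together between libraries, so these counts of signs are not counts of independent observations.

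The host genes of small RNAs, whose introns carry small nucleolar RNAs or microRNAs, had a median of -0.46. Of 28 tested, 6 passed, all lower under sh4 (against 3.33% of all genes). MIR17HG, host of the miR-17 to miR-92 cluster, had 409, 278 and 318 in shlacZ, 137 and 155 in sh4, and 394 and 351 in sh8 (-1.35, adjusted p = 0.00631). Of 22 melanoma and abundant long non-coding RNAs, 7 were lower under sh4 (against 3.33% of all genes) and 0 higher. Among the 7 were TEX41, LINC00518 (-1.40), HULC (-1.28) and GAS5 (-0.74).

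The integrated stress response list holds amino acid genes that the factor ATF4 switches on. Of 33 tested, 6 were lower and 1, PPP1R15A, was higher, against 3.33% and 3.67% of all genes. PHGDH, the first enzyme of serine synthesis, had 2485, 2889 and 2909.9 in shlacZ, 927 and 901 in sh4, and 2043 and 2654 in sh8 (-1.35, SE 0.15, adjusted p = 0.00183). MTHFD2, of mitochondrial folate metabolism, had 1806, 2297 and 2094 in shlacZ, 542 and 627 in sh4, and 1302 and 1242 in sh8 (-1.12, SE 0.15, adjusted p = 0.00305). PSAT1 (-0.90), CTH (-1.06), CBS (-0.97) and ATF4 itself (-0.50, adjusted p = 0.0499) completed the group.

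Cell cycle and death regulators split. Of 28 G1/S regulators, the kinase CDK6 (-1.35), the ubiquitin ligase subunit SKP2 (-0.92) and E2F3 (-0.72) were lower under sh4, and the brake RB1 (0.64) and CCND1 (0.79) were higher. CCND1, cyclin D1, had 12244, 13455 and 17049.8 in shlacZ, 12731 and 13476 in sh4, and 6718 and 8562 in sh8, so the gap came from the sh8 libraries, which lay below all others. Of 26 p53 targets, 5 were higher and 0 lower, with a median of 0.23. Over all genes, 3.67% were higher and 3.33% lower. The 5 were PMAIP1 (1.69), GADD45A (1.08), ZMAT3 (0.80), MDM2 (0.79) and TNFRSF10B (0.59). Against control, PMAIP1 stood at 0.71 under sh4 and -0.97 under sh8, and GADD45A at 0.36 and -0.72. None of these steps passed. ZMAT3 passed above control under sh4 (0.52) and did not pass under sh8 (-0.27). In the BCL2 family the death-promoting members PMAIP1, BMF (0.86) and BCL2L11 (0.81) were higher among 16 tested. Of 51 mitosis genes and 48 DNA replication genes, ANLN and UHRF1 were the only ones that passed, and both were higher under sh4. Both gaps came mainly from the sh8 libraries, at -1.26 (ANLN) and -1.86 (UHRF1) from control, with sh4 at 0.05 and -0.25. The lists leaned the other way, with 43 mitosis and 35 replication genes at a point estimate below 0 (medians -0.20 and -0.12).

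Of 25 tested type I interferon response genes, DDX60 alone passed (1.78, adjusted p = 0.0391), although 20 had a point estimate above 0. Of 18 double-stranded RNA sensing genes, the receptor RIGI (0.88, limma, adjusted p = 0.041) and the kinase IKBKE (1.65) were higher. RIGI did not pass with upper quartile scaling or without the variance trend. Of 21 antigen presentation genes 1, TAP2 (-0.75), passed. The WNT list had 5 higher, RNF43, NKD1 (1.23), AXIN2 (0.90), LGR4 (0.62) and TNFRSF19 (0.56), and 2 lower, NKD2 (-1.71) and CTNNB1 (-0.59), of 23 tested. Of 44 axon guidance genes 8 were higher, led by SEMA3D (2.18), and 6 were lower, led by SLIT1 (-1.20). Over all genes, 3.67% were higher and 3.33% lower. The small RNA pathway, which processes hairpins, had 0 of 27 pass, and neither did any of 25 cyclic AMP and CREB target genes, 23 cytosolic heat shock genes or 5 cytokines and chemokines.

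In most other lists a few genes passed in either direction, where 3.67% of all genes were higher under sh4 and 3.33% lower. Of 41 lysosome genes 3 were higher, among them the membrane protein LAMP1 (0.89) and the cholesterol transporter NPC1 (0.78), and 3 were lower, among them the protease CTSF (-1.18) and the ceramidase ASAH1 (-0.68). Of 26 ion channel genes the purine receptor P2RX7 (-1.90), TRPM1, the potassium channel subunit KCNAB2 (-1.46) and KCNQ5 (-0.92) were lower. ITPR1 (0.90) and CACNA2D1 (0.87) were higher. For CACNA2D1 the gap came from the sh8 libraries, at -0.91 from control, with sh4 at -0.04. The 35 hypoxia and glycolysis genes held 3 higher, ENO2 (1.07), EPAS1 (0.92) and HIF1A. The 1 lower was EGLN3 (-1.97), an enzyme that marks hypoxia factors for destruction. EGLN3 had 5 and 11 reads in sh4 and did not pass with limma-voom on recovered reads. Of 61 respiratory chain genes and regulators, the coactivator PPARGC1B (-1.37) and its partner ESRRA (-0.86) were lower and ATP5F1A (0.75) was higher. These counts were no larger than the shares of all genes. ATP5F1A passed below control under sh8 (-1.09) and not under sh4 (-0.34).

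Among signalling lists, 3 of 21 JAK STAT3 genes were higher and 0 lower, with PIM1 (1.07) first. The shares over all genes were 3.67% higher and 3.33% lower. The Notch list had MAML3 (0.76) and HEY2 (0.78) higher and the target HES1 (-0.71) lower of 19 tested. In NF-kB, the subunit NFKB1 (0.93) was higher and CD83 (-1.57) and TRAF3 (-0.89) were lower of 25. NFKB1 had 971, 1240.1 and 1147 in shlacZ, 1058 and 1214 in sh4, and 579 and 609 in sh8, so its sh8 libraries were the low ones. The kinase LATS2 (-0.63) was lower and the TEAD cofactor VGLL4 (1.07) higher of 18 YAP and TEAD genes. For LATS2 the gap came from the sh8 libraries, at 0.57 from control, with sh4 at -0.05. Of the 12 genes of the dedifferentiated and invasive state, SERPINE2 and ITGA3 were higher and LOXL2 (-1.97) was lower. LOXL2 was near the detection limit, with 4 and 7 reads in sh4 and 20 and 20 in sh8.

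**Figure D3:**
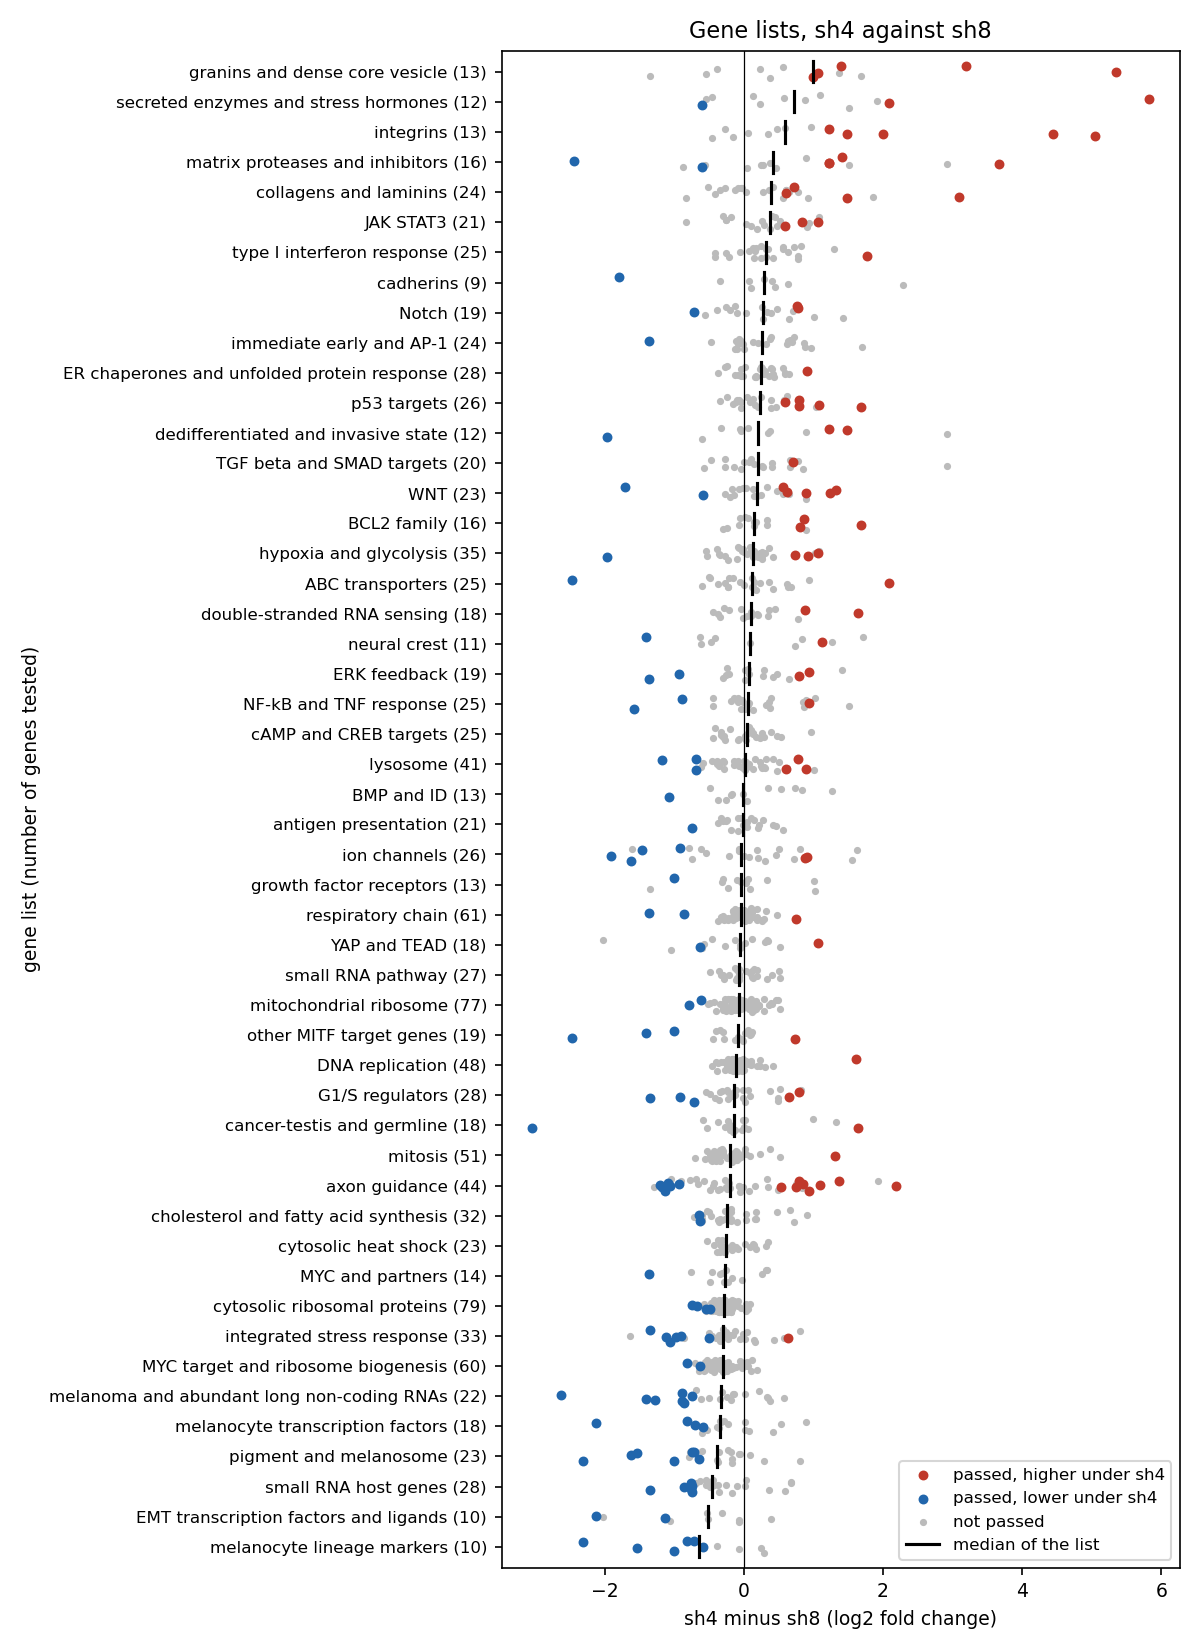
Log2 fold change of sh4 minus sh8 (horizontal axis) of the genes of 50 gene lists, ordered by their median. Each point is a gene, coloured if it passed, and the black line is the median of the list, from -0.65 for the melanocytic lineage markers to 0.99 for the granins and dense core vesicle genes.

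A number of genes were moved away from control in opposite directions by the 2 hairpins, with an adjusted p under 0.05 in each hairpin's comparison with shlacZ. They were 9 of 15420 genes (0.0584%). The rule that chose them used the shlacZ libraries in both comparisons and fixes the direction of their difference between the hairpins, which is therefore given for the set as a description only. Higher under sh4 and lower under sh8 were VGF, BICDL1, ERMP1, FZD6, RNF43, BMP2K and STK39. Lower under sh4 and higher under sh8 were TEX41 and CDK6. Only VGF and BICDL1 exceeded a log2 fold change of 1 from control under both.

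FZD6, a Frizzled receptor for WNT ligands, had 305, 278 and 267 normalized counts in shlacZ, 454 and 459.7 in sh4, and 130.5 and 137 in sh8. The 3 groups were separate, sh4 0.69 above control (adjusted p = 0.0109) and sh8 at -1.08 (adjusted p = 0.00725). RNF43, a ubiquitin ligase that removes Frizzled receptors from the cell surface, had 490.2, 526 and 405 in shlacZ, 682 and 700.1 in sh4, and 268 and 282 in sh8. Its sh4 step from control was 0.55 (adjusted p = 0.0276) and its sh8 step -0.77 (adjusted p = 0.0274).

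The kinases of the set were BMP2K, STK39 and CDK6. BMP2K, a kinase of endocytosis, had 1555, 1598 and 1735 in shlacZ, 1930.1 and 2537 in sh4, and 900.3 and 942 in sh8. STK39, which regulates ion transporters, had 613, 633 and 656 in shlacZ, 809.7 and 872 in sh4, and 409.9 and 386 in sh8. Their sh4 steps from control were the smallest of the set (0.44 and 0.41, adjusted p = 0.0443 and 0.0438). CDK6, the G1 kinase that pairs with D cyclins, had 2514, 2269.8 and 2025 in shlacZ, 1568 and 1527 in sh4, and 4062 and 3833 in sh8. It went the other way, with a sh4 step of -0.55 (adjusted p = 0.0109) and a sh8 step of 0.80 (adjusted p = 0.00954), while its partner CCND1 was lower under sh8.

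BICDL1, a dynein adaptor of vesicle transport, had 97.0, 70.2 and 104 in shlacZ, 230.4 and 181 in sh4, and 40.9 and 41.0 in sh8. ERMP1, a metallopeptidase of the endoplasmic reticulum, had 1023, 853 and 1018 in shlacZ, 1376 and 1919.6 in sh4, and 394 and 547 in sh8. TEX41, a long non-coding RNA (chromosome 2, 144666312 to 145262988), had 1096, 1532 and 998 in shlacZ, 426 and 340.3 in sh4, and 2769 and 1996 in sh8. In each of the 9 genes both libraries of a hairpin lay beyond all 3 control libraries.

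The membership of this set varied with the settings. With quantile normalization 16 genes met the rule, without the variance trend 2, without the first shlacZ library 24, without the second or the third 4 and 3, without the first or second sh4 library 3 and 1, and without the first or second sh8 library 2 and 1. Of the 16 alternatives that gave both comparisons, VGF met the rule in 15, FZD6 in 12, CDK6 in 11, TEX41 and ERMP1 in 10 each, RNF43 and BMP2K in 8 each, STK39 in 7 and BICDL1 in 4.

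**Figure D4:**
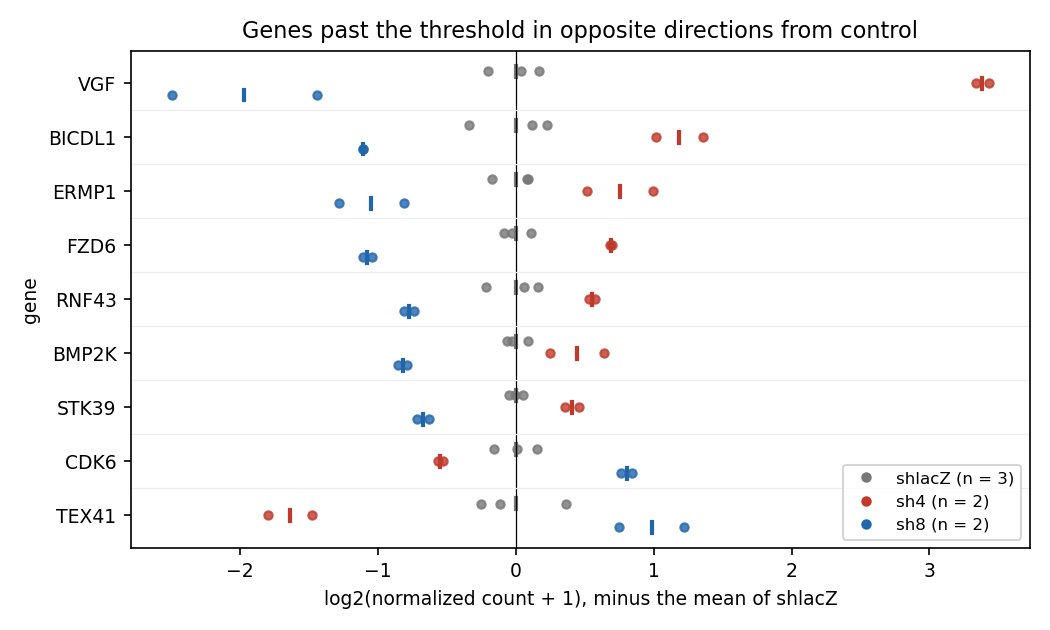
Level of the 9 genes that passed in opposite directions from control, as log2(normalized count + 1) minus the shlacZ mean (horizontal axis). Points are libraries and short lines group means. The sh4 and sh8 points stand on opposite sides of the control points in every gene.

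Although sh4 lay farther from control for most of the 492 called genes, sh8 lay farther for 70 (14.2%). Over all tested genes the share was 34.7%. Of these 70, 49 were higher under sh4 than under sh8, and 29 passed between sh8 and control, 25 of them below control and 4 above. The 12 with the largest sh8 step were named after their values had been seen.

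DTD2, which removes wrong amino acids from transfer RNA, had 420.1, 530 and 459 in shlacZ, 395 and 435 in sh4, and 62.0 and 90.1 in sh8 (sh4 minus sh8 2.46, SE 0.22, adjusted p = 0.000896). TWF1, the actin-binding protein twinfilin, had 2879, 3395 and 3157 in shlacZ, 2483 and 2862 in sh4, and 743 and 612 in sh8 (1.98, SE 0.15, adjusted p = 0.000417). In both genes sh4 stayed at the control level or just below it and sh8 lay below it. DTD2 fell by 2.63 under sh8 and TWF1 fell by 2.22 on the log2 scale.

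UHRF1, which maintains DNA methylation through replication, had 1844, 2528 and 2178 in shlacZ, 1726 and 1909.9 in sh4, and 708 and 501 in sh8 (1.61, adjusted p = 0.00194). ANLN, an actin-binding protein of cell division, had 3695, 4128 and 3922 in shlacZ, 3386 and 4868 in sh4, and 1789 and 1492 in sh8 (1.31, adjusted p = 0.00305). Other genes of these 2 programs did not pass, as given with their lists. MAGEC1, a cancer-testis antigen, was 1.65 higher under sh4 than under sh8.

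The other genes below control under sh8 were SLAIN1, a microtubule growth factor (-1.80 from control), KCTD20 (-1.62), MGAT4B, a glycosyltransferase of the Golgi (-1.52), COX7A2L, an assembly factor of respiratory supercomplexes (-1.44), EHD4, of endosome traffic (-1.32), and SYNGR2, a vesicle membrane protein (-1.23). MGAT4B had 1056, 1225 and 1193 in shlacZ, 1275 and 1204 in sh4, and 397 and 409 in sh8. Of these 6, SLAIN1 alone also passed below control under sh4 (-0.62, adjusted p = 0.0353).

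The 1 gene of the 12 that was above control under sh8 was 7SK (ENSG00000202198, chromosome 6, 52995620 to 52995950, plus strand), annotated as a copy of the small nuclear RNA that restrains transcription elongation. It had 473, 655 and 861 in shlacZ, 779 and 434 in sh4, and 4246 and 2772 in sh8. A near-identical record, RN7SK (ENSG00000283293, 52995621 to 52995948), covers the same bases with 150949 to 250287 normalized counts per library and a sh4 minus sh8 difference of 0.08 (adjusted p = 0.893). The split of reads between these records is uncertain, so the value of the first is not a measure of the RNA.

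**Figure D5:**
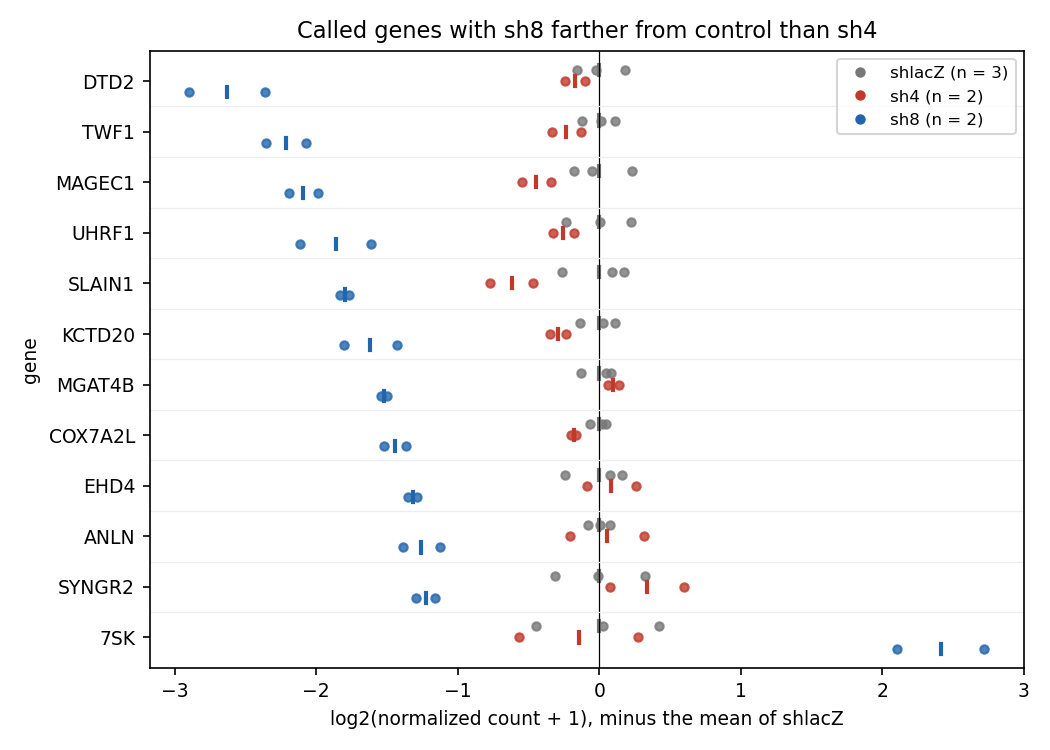
Level of the 12 called genes in which sh8 lay farther from control than sh4, with the largest sh8 step among those that passed against control, as log2(normalized count + 1) minus the shlacZ mean (horizontal axis). Points are libraries and short lines group means. For 11 genes the sh8 points lie to the left of all others, and for 7SK to the right.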

How the data were processed

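RNA from doxycycline-induced 501Mel cells was sequenced in 7 libraries (shlacZ n = 3, sh4 n = 2, sh8 n = 2). According to the study's methods, ribosomal RNA was depleted, and reads of stranded libraries were trimmed (Cutadapt), mapped to hg38 (STAR) and summed per gene (Salmon). The authors deposited 1 table of normalized counts, that is, counts divided by a size factor per library, written with decimal commas. The table held 21305 genes with at least 10 reads over all libraries. Dividing each value by that of 1 read gave a whole number in 100% of cases (within 0.001), and these reads gave the depth. Size factors remove a change shared by most transcripts.

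Genes with a mean of at least 10 (15420) were put on the scale log2(normalized count + 1) and fitted with limma 3.58.1 (R 4.3.3), using 3 groups and a variance trend. This scale understates the change of low genes. P-values are two-sided and Benjamini-Hochberg adjusted over all genes. GRASLND was also tested by exact permutation. Alternatives are given at the end. The fit was tested on simulated data. No negative binomial test was run. The deposited values are normalized counts, and limma-voom was the only test applied to the recovered reads.

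Named were GRASLND, RNF144A, the 12 highest and 12 lowest calls with a symbol and a mean of at least 50, the genes moved in opposite directions, and up to 3 passing genes per direction (or, where none passed, 2 of the highest mean) in each of 54 gene lists. Some further list members that passed are given with their list. The members and lists were chosen with earlier results of these data known. Coordinates are from GENCODE release 44 on hg38.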

Additional observations from a re-analysis of the deposited data

Results flagged for a closer look

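The effects of the hairpins, each against shlacZ, passed in opposite directions in 9 genes (limma, adjusted p under 0.05). Genes chosen in this way must differ between the hairpins, so the differences are a description and not a further test. As sh4 minus sh8 on the log2 scale, these were VGF (5.35), BICDL1 (2.29), ERMP1 (1.81), FZD6 (1.77), RNF43 (1.33), BMP2K (1.26), STK39 (1.08), CDK6 (-1.35) and TEX41 (-2.62). Each hairpin effect rests on 2 libraries and on the same 3 control libraries. No group held the 4 libraries that a test for a single distant library needs.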

How the results depend on the processing

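Each result was recomputed under 10 other settings and with each of the 7 libraries left out. Calls between sh4 and sh8 stayed between 375 and 624 (main 492) under the other settings. Leaving out 1 library gave 134 to 639 calls, 61 to 394 higher and 73 to 245 lower under sh4, and 144 to 1975 genes that passed. Without the variance trend 476 genes passed. Genes in opposite directions from control numbered 16 with quantile normalization, 2 without the variance trend, and 1 to 24 with a library left out. For GRASLND the difference ranged from -0.58 to -0.10 with a library left out, adjusted p from 0.28 to 0.9, and did not pass under any setting. A group left with 1 library was assumed to vary like the others. The cause of these shifts was not tested.

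The replicate number as a block gave 584 calls, 1467 genes that passed and 9 in opposite directions. STK39, RNF43 and BICDL1 did not meet that rule under the block, and other genes took their place. Across genes, the difference of the second minus the first replicate correlated at 0.0337 between sh4 and sh8. It correlated at 0.31 between shlacZ and sh4 and at 0.0342 between shlacZ and sh8. The replicate number thus carried little in common between the hairpins, but some between shlacZ and sh4. The block kept the call of 144 of 145 named genes, losing LOXL2.

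Named genes that did not pass, and RN7SK, changed sign in some settings. CNOT1 went to 0.062 and KRT10 to -0.028 with quantile normalization, and COL1A1 to 0.019 with limma-voom on recovered reads. With a library left out, MIF ranged from -0.26 to 0.023, CNOT1 from -0.16 to 0.017, TNRC6B from -0.021 to 0.096, KRT10 from -0.12 to 0.20, COL1A1 from -0.78 to 0.61 and RN7SK from -0.18 to 0.33. List medians moved by at least the spread between replicates in 90 of 918 values, 74 of them with a library left out. Genes near the minimum mean are limited by counting.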
